A study of Rattus norvegicus with 12 samples.

Results

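Ncoa7 and Tent5a (older symbol Fam46a) were followed on every probe set annotated to either gene, which gave 2 probe sets for Ncoa7 and 3 for Tent5a. These are 2 of 14217 genes and 5 of 20826 tested probe sets that carry 1 gene symbol. The 2 genes were chosen by their response to interferon alpha on these same arrays, with 3 h set against 6 h, so the changes with interferon and their difference between the times are given as descriptions with no test. The cells were primary hepatocytes from livers of Wistar rats, cultured with or without 250 U/ml rat interferon alpha, and each of the 12 arrays measured 1 RNA sample. The 4 groups of 3 arrays were interferon alpha for 6 h, untreated control at 6 h, interferon alpha for 3 h and untreated control at 3 h. The labels call the 3 arrays of a group biological replicates without saying whether they came from separate animals, so a p-value measures the spread between these samples.

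Interferon alpha binds a receptor on the cell surface, and the kinases attached to it activate transcription factors. These act on target genes through promoter motifs, among them the interferon-stimulated response element (ISRE) and the gamma-activated sequence (GAS). Ncoa7 encodes nuclear receptor coactivator 7, which binds nuclear receptors and ends in a TLDc domain. In human cells a short interferon-induced form of it binds the vacuolar ATPase, the proton pump of endosomes and lysosomes, and hinders influenza virus from entering through endosomes. Tent5a encodes a non-canonical poly(A) polymerase, an enzyme that lengthens the poly(A) tails of messenger RNAs in the cytoplasm. In mouse bone-forming cells it acts on collagen messenger RNAs.

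The promoter windows are shown because the motifs of the interferon pathway were looked for in them. Each window runs from 250 bases before to 50 bases after an annotated start, taken from RefSeq on build GRCr8. Ncoa7 had 4 windows on the plus strand of chromosome 1: 3 whose starts lie within 185 bases, and 1 that lies 143.1 kb further on. Tent5a had 1 window on the minus strand of chromosome 8. The first and the last Ncoa7 window (chr1:28675352-28675651 and chr1:28818431-28818730) and the Tent5a window (chr8:95109051-95109350) read as follows, 5′ to 3′, with each GAAA or its reverse complement TTTC in capitals.
Ncoa7, first window: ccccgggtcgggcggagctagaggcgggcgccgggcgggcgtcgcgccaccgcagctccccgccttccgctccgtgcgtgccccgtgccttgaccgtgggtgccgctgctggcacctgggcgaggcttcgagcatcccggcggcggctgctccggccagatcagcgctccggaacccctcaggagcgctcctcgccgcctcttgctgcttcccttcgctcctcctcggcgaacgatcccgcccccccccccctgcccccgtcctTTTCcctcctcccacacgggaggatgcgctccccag
Ncoa7, last window: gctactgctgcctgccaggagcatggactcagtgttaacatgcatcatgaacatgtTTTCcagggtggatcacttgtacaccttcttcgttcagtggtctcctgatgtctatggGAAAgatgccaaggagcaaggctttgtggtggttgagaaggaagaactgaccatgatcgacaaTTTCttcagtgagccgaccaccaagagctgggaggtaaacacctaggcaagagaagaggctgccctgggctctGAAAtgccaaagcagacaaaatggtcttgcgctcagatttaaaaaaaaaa
Tent5a: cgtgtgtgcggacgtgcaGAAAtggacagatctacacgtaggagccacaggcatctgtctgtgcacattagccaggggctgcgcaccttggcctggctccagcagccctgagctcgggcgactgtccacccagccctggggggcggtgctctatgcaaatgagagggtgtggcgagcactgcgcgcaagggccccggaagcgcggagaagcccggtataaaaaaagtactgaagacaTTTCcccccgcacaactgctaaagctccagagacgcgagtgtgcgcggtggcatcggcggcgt

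The ISRE core was searched as GAAANNGAAA and GAS as TTCNNNGAA, on both strands, where N is any base. Neither motif was found in the 4 Ncoa7 windows or in the Tent5a window. The single GAAA, which is contained in the ISRE core, occurred 4 times in the last Ncoa7 window, 1 time in the first and 2 times in each of the others, and 2 times in the Tent5a window. Of all 33469 windows in the RefSeq table, 3.92% held the ISRE core, 8.87% held GAS and 90.3% held GAAA. Counted by gene, with a match in any of its windows, 4.12% of 27457 genes held the ISRE core and 9.39% held GAS. Among 24 genes of a panel of known interferon-stimulated genes that had windows, 15 held the ISRE core and 9 held GAS, counted the same way. The windows cover 300 bases each, and the absence of a match says only that these letters are not there. The first 3 Ncoa7 windows had 74 to 75.3% G and C, the last one 48%, and the Tent5a window 62.3%. Which of the 4 Ncoa7 starts was in use in these cells cannot be read from the array values.

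The arrays were alike in overall level, with medians of 5.16 to 5.21 log2. Of 10 hepatocyte markers 9 were measured, and none was below an array's lower quartile on every array. Their summed level was 16.5 to 16.7 log2 in every group. Of 45 markers of Kupffer cells, endothelial cells, stellate cells, cholangiocytes, lymphocytes and neutrophils, 38 were measured, and limma called none as changed by interferon at either time, while 0 at 6 h and 3 at 3 h had an unadjusted p under 0.05. Of all genes, 0.563% were called higher at 6 h and 0.00703% at 3 h, so 0 of 38 lies near that share. Of the 38, 8 stayed below the lower quartile on every array: Adgre1, Stab1, Col1a2, Lrat, Krt19, Cd3g, Csf3r and S100a8. The other 30 did not, among them the Kupffer cell markers Cd14 (mean 11.90 log2), Cd68 (6.95 log2), Cd5l (5.88 log2) and Clec4f (5.75 log2) and the cholangiocyte marker Epcam (11.28 log2). The summed level of the 7 measured Kupffer cell markers was 11.84 to 12.36 log2 with interferon and 11.90 to 12.37 log2 in control cells at 6 h, and 11.72 to 12.24 log2 with interferon and 11.75 to 12.25 log2 in control cells at 3 h. That of the 4 measured cholangiocyte markers was 10.79 to 11.73 log2 over all groups. Both sums overlapped between interferon and control cells at each time. They add unlogged levels, so Cd14 makes up most of the first and Epcam most of the second. The other markers of these 2 lists hardly enter them. In such bulk samples, fewer cells of a type and less RNA per cell cannot be told apart. The array of interferon at 3 h, replicate 1, stood apart from the others of its group in its change against its control. Against the same-numbered control, the median change of 31 measured panel genes was 1.78, 3.03 and 2.63 log2 in replicates 1, 2 and 3 at 6 h. At 3 h these medians were 0.348 log2 in replicate 1, 1.92 log2 in replicate 2 and 1.32 log2 in replicate 3. Number 1 thus had the lowest median at both times, and such differences alone do not separate the interferon array from its control. The changes of Ncoa7 and Tent5a that rest on the array of interferon at 3 h, replicate 1, are given with and without it.

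Ncoa7 was the gene of the pair with the larger response. On its brighter probe set, 1383938_at, the levels at 6 h were 8.58, 8.48 and 7.35 log2 with interferon, against 5.72, 5.52 and 5.34 log2 in control cells. At 3 h they were 7.79, 9.74 and 9.38 log2 with interferon, against 5.68, 5.80 and 5.39 log2 in control cells. At both times every interferon array lay above every control array. Here and for the genes below, groups that lie apart or overlap are described only. The share of all probe sets with groups apart is not given, and the 2 genes were chosen on these values. The group means were 8.14 ± 0.68 log2 with interferon and 5.53 ± 0.19 log2 in control cells at 6 h, and 8.97 ± 1.04 log2 with interferon and 5.62 ± 0.21 log2 in control cells at 3 h (SD, n = 3 each). The change was 2.61 ± 0.45 log2 at 6 h and 3.35 ± 0.45 log2 at 3 h (± SE of the fit), which is 6.10-fold and 10.2-fold. Among all 31042 probe sets tested, this was the change of rank 37 from the highest at 6 h and of rank 2 at 3 h.

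The second Ncoa7 probe set, 1395081_at, was dim in control cells and gave the same picture. Its levels at 6 h were 6.43, 6.45 and 5.29 log2 with interferon, against 3.99, 3.96 and 3.77 log2 in control cells. At 3 h they were 5.50, 7.37 and 6.82 log2 with interferon, against 3.96, 3.76 and 4.00 log2 in control cells. Again no interferon array overlapped with the controls. The control levels lay at about the lower quartile of all probe sets on an array, 3.84 to 3.93 log2. The change was 2.15 ± 0.42 log2 at 6 h and 2.66 ± 0.42 log2 at 3 h (± SE of the fit). No fold is given, since the deposited values do not show whether the control levels were above background. Its rank was 64 at 6 h and 10 at 3 h. Over the 12 arrays the pair of Ncoa7 probe sets had a Pearson correlation of 0.993, given as a description.

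**Figure D1:**
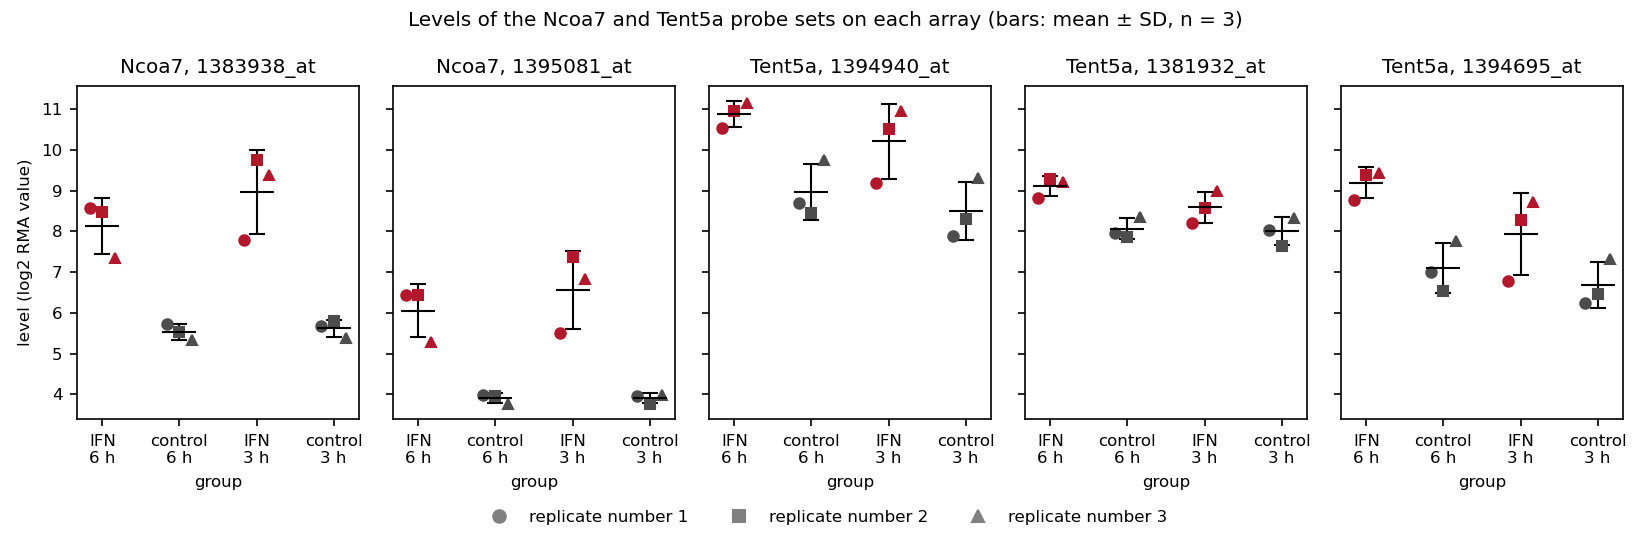
Levels (log2, RMA) of the 2 Ncoa7 and 3 Tent5a probe sets on all 12 arrays, by group, with interferon left of control and 6 h left of 3 h; points are arrays marked by replicate number, and bars are means with SD (n = 3). Interferon (red) and control (grey) arrays are apart for Ncoa7 at both times, while for Tent5a they are apart at 6 h and overlap at 3 h. The genes were chosen on these values, and the share of all probe sets with groups apart is not given.

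Tent5a was already well above the array medians in control cells and was higher still with interferon. On its brightest probe set, 1394940_at, the levels at 6 h were 10.53, 10.96 and 11.16 log2 with interferon, against 8.70, 8.46 and 9.74 log2 in control cells. At 3 h they were 9.18, 10.50 and 10.94 log2 with interferon, against 7.89, 8.31 and 9.30 log2 in control cells. The groups did not overlap at 6 h. At 3 h interferon replicate 1 read below control replicate 3, although each interferon array lay above the control of its own number. The mean was 10.88 ± 0.32 log2 with interferon and 8.97 ± 0.68 log2 in control cells at 6 h, and 10.21 ± 0.92 log2 with interferon and 8.50 ± 0.72 log2 in control cells at 3 h (SD, n = 3 each). The change was 1.91 ± 0.49 log2 at 6 h, or 3.76-fold, and 1.71 ± 0.49 log2 at 3 h, or 3.27-fold (± SE of the fit). Replicate 3 was the highest of both control groups, and with replicate number as a block the standard error fell to 0.24 log2.

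Probe set 1394695_at of Tent5a had levels of 8.76, 9.39 and 9.44 log2 with interferon at 6 h, against 6.99, 6.54 and 7.76 log2 in control cells. At 3 h it had 6.79, 8.28 and 8.71 log2 with interferon, against 6.24, 6.47 and 7.32 log2 in control cells. The groups were apart at 6 h and overlapped at 3 h, again through interferon replicate 1. The change was 2.10 ± 0.48 log2 at 6 h and 1.25 ± 0.48 log2 at 3 h (± SE of the fit), or 4.29-fold and 2.37-fold.

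Probe set 1381932_at of Tent5a moved least. It had 8.83, 9.28 and 9.21 log2 with interferon at 6 h, against 7.96, 7.87 and 8.36 log2 in control cells, and the groups did not overlap. At 3 h it had 8.22, 8.58 and 8.98 log2 with interferon, against 8.05, 7.64 and 8.32 log2 in control cells, and the groups overlapped. The change was 1.04 ± 0.23 log2 at 6 h and 0.59 ± 0.23 log2 at 3 h (± SE of the fit), or 2.06-fold and 1.50-fold. The 3 Tent5a probe sets therefore differed in the size of the change at 6 h, from 1.04 to 2.10 log2, while over the 12 arrays their correlations with each other were 0.944 to 0.975. Their ranks among all probe sets were 68 to 166 at 6 h and 25 to 161 at 3 h.

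The mean changes of the 2 genes ran in opposite order over time. For Ncoa7 the change at 6 h minus that at 3 h was -0.74 ± 0.64 log2 on 1383938_at and -0.51 ± 0.59 log2 on 1395081_at (± SE of the fit). For Tent5a it was 0.20 ± 0.69 log2 on 1394940_at, 0.45 ± 0.32 log2 on 1381932_at and 0.85 ± 0.68 log2 on 1394695_at. Ncoa7 thus had the smaller change at 6 h on both probe sets, and Tent5a had the larger change at 6 h on all 3. In this fit each difference was less than 1.5 times its standard error. With replicate number as a block, the standard errors were 0.57 and 0.54 log2 on Ncoa7's 1383938_at and 1395081_at, and 0.34, 0.21 and 0.40 log2 on Tent5a's 1394940_at, 1381932_at and 1394695_at, so that the differences on the last 2 were larger than 2 times theirs. The name of an early responder, in the sense of a larger change at 3 h, fits the means of Ncoa7 and goes against those of Tent5a. No probe set of the whole array passed the limma test of this difference at an adjusted p of 0.05, and 673 of 31042 had an unadjusted p under 0.05 (1466 with replicate number as a block).

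The replicate numbers did not run alike for Ncoa7. On 1383938_at the difference between the times was 0.75 log2 in number 1, -0.98 log2 in number 2 and -1.98 log2 in number 3. On 1395081_at it was 0.90, -1.13 and -1.30 log2 in numbers 1, 2 and 3. Number 1, which holds the array that stood apart, ran opposite to the others on both probe sets. For Tent5a the differences were above 0 in all numbers on 1381932_at (0.69, 0.48 and 0.19 log2) and on 1394695_at (1.22, 1.05 and 0.29 log2). On 1394940_at they were 0.54, 0.30 and -0.23 log2 in numbers 1, 2 and 3. On all 5 probe sets the difference was highest in number 1 and lowest in number 3.

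Without the array of interferon at 3 h, replicate 1, the 3 h changes were higher on all 5 probe sets. They were 3.94 and 3.19 log2 for Ncoa7 on 1383938_at and 1395081_at, and 2.22, 0.78 and 1.81 log2 for Tent5a on 1394940_at, 1381932_at and 1394695_at. The change at 6 h minus that at 3 h was then -1.33 and -1.04 log2 on the Ncoa7 probe sets. On Tent5a it was -0.31 log2 on 1394940_at, where the sign turned, 0.27 log2 on 1381932_at and 0.29 log2 on 1394695_at. The sign on 1394940_at also turned without the control array at 3 h, replicate 3 (-0.19 log2). Leaving out 1 array parts a pair of the same number. Leaving out number 3 altogether brought the Ncoa7 differences to -0.12 and -0.11 log2, and leaving out number 1 altogether brought them to -1.48 and -1.22 log2. The Tent5a differences stayed above 0 when numbers 1, 2 and 3 were left out altogether in turn. They were 0.04, 0.15 and 0.42 log2 on 1394940_at, 0.33, 0.44 and 0.59 log2 on 1381932_at, and 0.67, 0.76 and 1.14 log2 on 1394695_at.

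**Figure D2:**
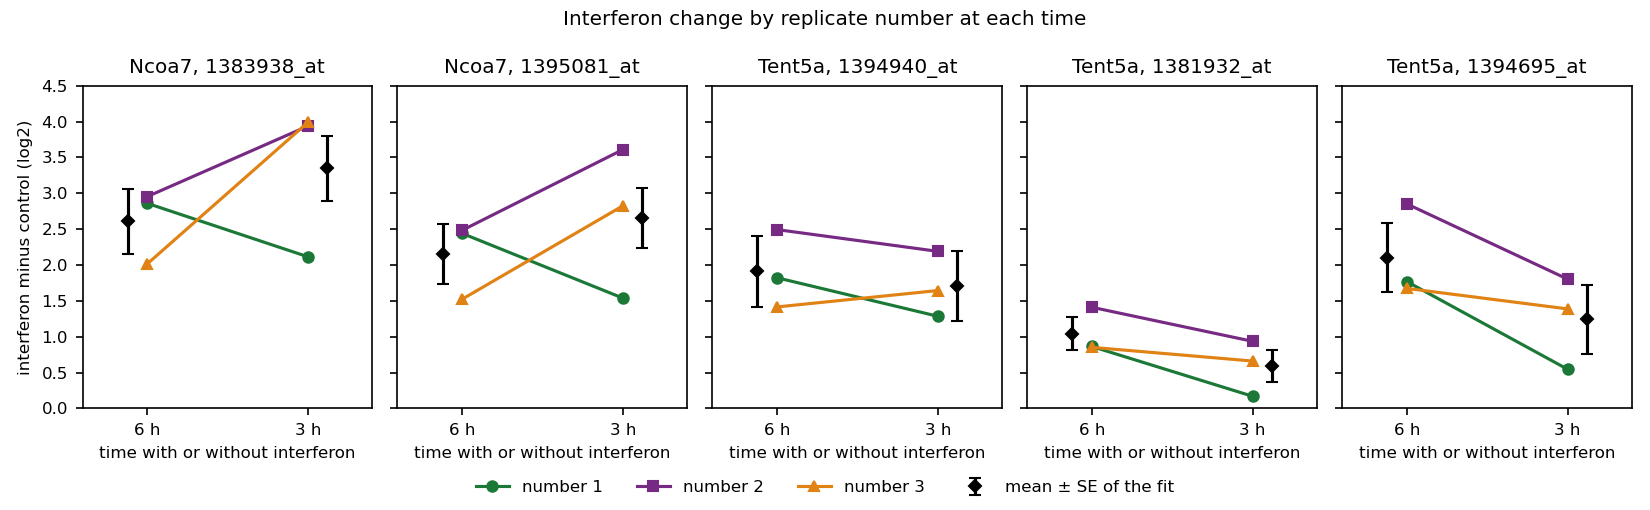
Change with interferon (log2, interferon minus the control of the same replicate number) at 6 h and at 3 h for each of the 5 probe sets; each line joins the pair of values of 1 replicate number, and diamonds are means with the SE of the fit. For Ncoa7, numbers 2 and 3 are lower at 6 h and number 1 is higher; for Tent5a, 1 of the 9 lines is lower at 6 h.

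Within interferon-treated cells, the level at 6 h minus that at 3 h was -0.83 and -0.51 log2 for Ncoa7 on 1383938_at and 1395081_at, and the groups overlapped on both. For Tent5a it was 0.67, 0.51 and 1.27 log2 on 1394940_at, 1381932_at and 1394695_at, and the groups were apart on the last of these alone. Without the array of interferon at 3 h, replicate 1, these values were -1.42 and -1.04 log2 for Ncoa7 and 0.16, 0.33 and 0.70 log2 for Tent5a, in the same order.

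Untreated cells served to test whether the genes moved with time in culture alone, which is the comparison that the choice of the genes did not use directly. Neither gene passed the test in untreated cells. For Tent5a the estimates were above 0 on all 3 probe sets, though close to 0 on 1381932_at. Control at 6 h minus control at 3 h was -0.09 log2 for Ncoa7 on 1383938_at (95% interval -1.09 to 0.90, limma adjusted p = 0.980) and 0.00 log2 on 1395081_at (-0.92 to 0.92, limma adjusted p = 0.999). For Tent5a it was 0.47 log2 on 1394940_at (95% interval -0.61 to 1.55, limma adjusted p = 0.838), 0.06 log2 on 1381932_at (-0.44 to 0.56, limma adjusted p = 0.976) and 0.42 log2 on 1394695_at (-0.65 to 1.48, limma adjusted p = 0.860). Over all probe sets 59 of 31042 were called in this comparison, or 0.19%, and 8.15% with replicate number as a block. These intervals are from the fit without the block, in which none of the 5 had an unadjusted p under 0.05. The block lowered the standard error from 0.49 to 0.24 log2 on 1394940_at and from 0.48 to 0.28 log2 on 1394695_at. By number, untreated cells were higher at 6 h in all 3 on both: by 0.81, 0.15 and 0.44 log2 on 1394940_at, and by 0.75, 0.06 and 0.44 log2 on 1394695_at. With the block none was called either, and the lowest limma adjusted p was 0.293, on 1394940_at.

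Among the probe sets that responded at 3 h, fewer shared the order over time of Ncoa7 than ran the other way. Of 71 probe sets at least 1 log2 higher with interferon at 3 h, 62 had a larger change at 6 h and 9 a smaller one. Their median change was 2.61 log2 at 6 h and 1.52 log2 at 3 h. The Ncoa7 probe set 1383938_at had the most negative difference of the 71, and 1395081_at stood in place 4. The other named ones of the 9 were Cxcl10, a chemokine that draws T cells (-0.62 log2), C1h19orf12 (-0.56 log2), Socs1, an inhibitor of JAK kinases (-0.49 log2 on 1371252_at), Arhgap32, a GTPase-activating protein (-0.10 log2), and Irf1, a transcription factor (-0.02 log2). C1h19orf12 was named after its values were seen, and its second probe set ran the other way, with a larger change at 6 h (2.39 log2) than at 3 h (1.30 log2). Of Tent5a, 1394940_at stood in place 12 and 1394695_at in place 21 of the 71, and 1381932_at was below the threshold. Since the threshold was put on the 3 h change, these places are descriptions. With a threshold of 2 log2 there were 16 probe sets, 4 of them with a smaller change at 6 h. The count of 9 depended on single arrays. It was 18 of 100 without interferon at 3 h, replicate 1, 23 of 86 without interferon at 3 h, replicate 3, 29 of 99 without control at 3 h, replicate 1, and 19 of 78 without control at 3 h, replicate 2. Each of these parts a pair of the same number. With numbers 1, 2 and 3 left out altogether in turn, it was 14 of 117, 5 of 45 and 6 of 64. These shares were 12.0, 11.1 and 9.4%, against 12.7% with all arrays.

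The panel of interferon-stimulated genes showed this contrast by gene. Many of its genes are among the responding probe sets just described, on the same arrays, so it is not separate support. Of 32 listed genes 31 were measured, and 23 were called higher at 6 h by limma at an adjusted p of 0.05, where 0.563% of all genes were called higher. With replicate number as a block 28 were called at 6 h, where 1.46% of all genes were called. At 3 h Cxcl10 alone was called, where 0.00703% of all genes were called higher, and 6 were called with the block, where 0.113% were. The panel's median change was 2.37 log2 at 6 h and 1.21 log2 at 3 h, against a median of -0.02 log2 over all genes at both times. Znfx1, an antiviral helicase, had changes of 3.53 log2 at 6 h and 2.55 log2 at 3 h, and Ifit2, which binds viral RNA, 3.27 and 2.36 log2 at 6 h and 3 h. Irgm, an immunity-related GTPase, had 2.85 log2 at 6 h and 1.58 log2 at 3 h, and Adar, which edits adenosine in RNA, 1.27 and 0.47 log2. These 4 had a larger change at 6 h, as had 28 of the 31. Only Cxcl10, Irf1 and Socs1 of the panel had a smaller mean change at 6 h, as Ncoa7 had. The change at 6 h minus that at 3 h was -0.62 ± 0.73 log2 for Cxcl10 (± SE of the fit). For Irf1 it was -0.02 ± 0.59 log2, so its changes were about equal. For Socs1 on its brighter probe set both changes were near 0.

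**Figure D3:**
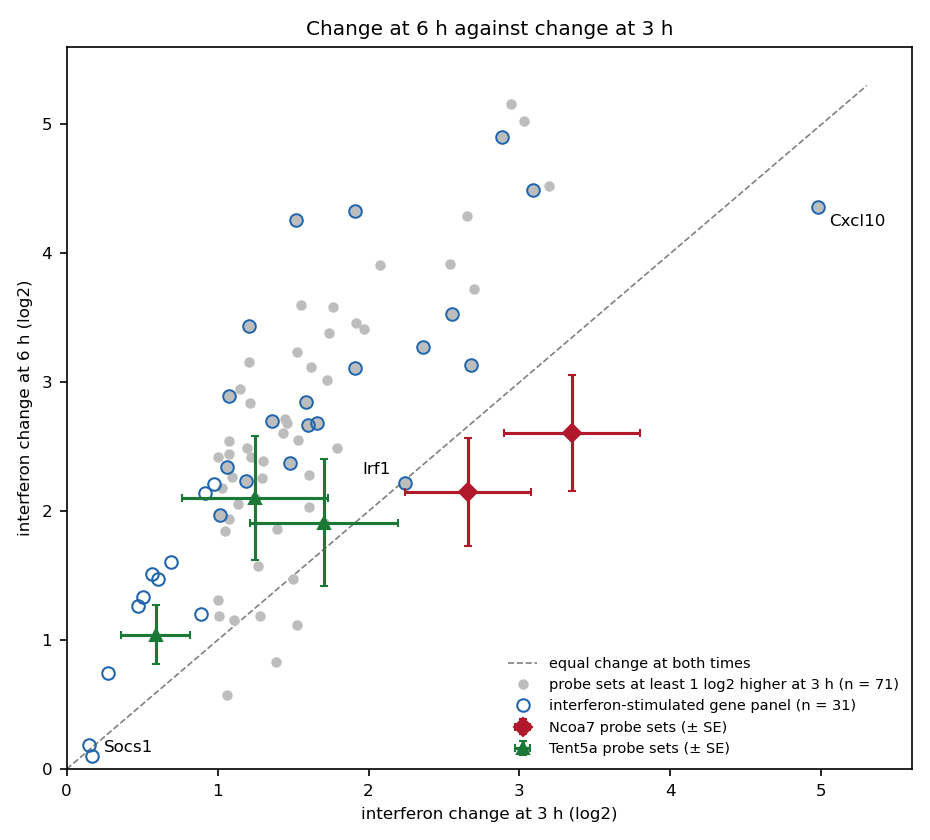
Change with interferon at 6 h (vertical axis, log2) against the change at 3 h (horizontal axis, log2) for the 71 probe sets at least 1 log2 higher at 3 h (grey), the 31 panel genes by their brightest probe set (open circles) and the Ncoa7 and Tent5a probe sets (with SE of the fit). The Ncoa7 probe sets lie below the dashed line of equal change beside Cxcl10, and the Tent5a probe sets lie above it.

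The genes whose pattern was most like that of Ncoa7 were drawn from 13981 genes by Pearson correlation with 1383938_at over the 12 arrays. They were Cxcl10 (r = 0.983), Irf1 (r = 0.935), Ifit2 (r = 0.924), Rsad2, an antiviral enzyme also called viperin (r = 0.910), and Arhgap32 (r = 0.902). Cxcl10 had changes of 4.36 log2 at 6 h and 4.98 log2 at 3 h. Rsad2 had 3.14 log2 at 6 h and 2.68 log2 at 3 h, so a high correlation with Ncoa7 did not require the same order over time. The arrays share treatment, time and replicate number, all of which enter these correlations.

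For Tent5a the most similar patterns to 1394940_at were those of Mad2l1bp, which takes part in the spindle checkpoint (r = 0.960), Washc4, a subunit of the endosomal WASH complex (r = 0.941), Ankfy1, an endosomal protein (r = 0.940), Med7, a subunit of Mediator (r = 0.935), and Enpp4, a nucleotide pyrophosphatase (r = 0.934). None of the 5 belongs to the panel. Once the mean of each replicate number was taken out, Mad2l1bp and Enpp4 stood in places 2 and 6 of all genes, while Washc4, Ankfy1 and Med7 fell to places 31, 37 and 35. Enpp4 had changes of 1.94 log2 at 6 h and 1.07 log2 at 3 h, the closest of the 5 in size to Tent5a. The other 4 had changes of 0.56 to 0.99 log2 at 6 h and 0.21 to 0.87 log2 at 3 h, so a similar pattern went with smaller changes. Between Ncoa7 and Tent5a probe sets the correlations over the 12 arrays were 0.681 to 0.787, below those within either gene, and 0.769 to 0.900 once the mean of each replicate number was taken out.

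No measured relative of Ncoa7 and no vacuolar ATPase gene was called by limma with interferon at either time, with or without the block, and 0 of them had an unadjusted p under 0.05. Of all genes, 0.563% were called higher at 6 h and 0.00703% at 3 h. With the block 1.46% and 0.113% were called in either direction. For lists this short, 0 calls lies near those shares. An unadjusted p under 0.05 was found for 1145 of 31042 probe sets at 6 h and 915 at 3 h. Of 4 other TLDc genes only Oxr1, which protects against oxidative damage, was measured, and its change was -0.13 log2 at both times. The 6 other coactivators named Ncoa were all measured and 0 were called at either time, with changes of -0.10 to 0.03 log2 at 6 h and -0.12 to 0.02 log2 at 3 h. Among them the brightest were Ncoa4, a ferritin receptor of autophagy (-0.07 log2 at 6 h), and Ncoa6 (-0.03 log2 at 6 h). Of 24 vacuolar ATPase genes 22 were measured and 0 were called with interferon, with changes of -0.18 to 0.04 log2 at 6 h and -0.26 to 0.11 log2 at 3 h. The brightest were the subunits Atp6v0c (0.03 log2 at 6 h) and Atp6v1d (-0.03 log2 at 6 h). In untreated cells 0 vacuolar ATPase genes were called, where 0.197% of all genes were, and 4 were lower at 6 h with the block, where 9.78% of all genes were called.

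Among 4 interferon-induced blockers of virus entry limma called 0 at either time, where 0.563% of all genes were called higher at 6 h and 0.00703% at 3 h. At an unadjusted p under 0.05 there was 1 of the 4 at each time, against 1145 of 31042 probe sets at 6 h and 915 at 3 h. At 6 h this was Ifitm3, and at 3 h it was Ch25h, an enzyme that makes 25-hydroxycholesterol, with 0.14 log2 at 6 h and 0.43 ± 0.12 log2 at 3 h (SE), named after its values were seen. Ifitm3, which hinders virus fusion in endosomes, averaged 12.84 ± 0.09 log2 with interferon at 6 h, against 12.11 ± 0.42 log2 in control cells (SD, n = 3 each). The difference of 0.73 ± 0.22 log2 had a limma adjusted p of 0.611, and of 0.0119 with replicate number as a block. Ifitm2 was dim and changed by -0.18 log2.

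Of the closest relatives of Tent5a, 2 of 3 were measured and neither was called by limma, although Tent5c had an unadjusted p under 0.05 at 6 h. Of all genes, 0.563% were called higher at 6 h and 0.00703% at 3 h. Tent5c had levels of 7.37, 7.68 and 7.98 log2 with interferon at 6 h, against 6.60, 5.70 and 6.87 log2 in control cells, and the groups did not overlap. At 3 h it had 6.04, 6.70 and 7.21 log2 with interferon, against 5.91, 5.35 and 6.53 log2 in control cells, and the groups overlapped, as for Tent5a. The change was 1.29 ± 0.38 log2 at 6 h (SE, limma adjusted p = 0.575, and 0.0225 with the block) and 0.72 log2 at 3 h. Tent5b was near the lower quartile and changed by -0.03 log2 at 6 h.

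Of 10 other poly(A) and uridylyl polymerases 1 was called higher by limma at 6 h, where 0.563% of all genes were, and 0 at 3 h, where 0.00703% were. At 3 h 1 of the 10 had an unadjusted p under 0.05. The called gene was Tent4a, which adds mixed tails to messenger RNAs. Its levels were 8.33, 8.37 and 8.22 log2 with interferon at 6 h, against 7.71, 7.42 and 7.75 log2 in control cells, and the groups did not overlap. The change was 0.68 ± 0.12 log2 (SE, limma adjusted p = 0.0398), while its other probe sets changed by 0.30 and 0.32 log2 and were not called. The call was lost when any of 10 of the 12 arrays was left out, with adjusted p-values up to 0.222, and also in the fit of the compared arrays alone, with limma-trend and after subtraction of the array medians. With replicate number as a block Tut4 (0.87 ± 0.19 log2, adjusted p = 0.00321 in limma) and Tut7 (0.72 ± 0.19 log2, adjusted p = 0.00586 in limma), which add uridines to RNA tails, were called as well, where 1.46% of all genes were. Without the block their limma adjusted p-values were 0.134 and 0.337, and both were named after their values were seen. Enzymes that shorten tails and proteins that bind them gave 0 calls by limma among 14 measured of 17, and 0 at an unadjusted p under 0.05, with changes of -0.26 to 0.20 log2 at 6 h and -0.31 to 0.06 log2 at 3 h. The brightest of them were Btg1, which recruits deadenylases (-0.05 log2 at 6 h), and Pabpc4, a poly(A)-binding protein (-0.13 log2 at 6 h).

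**Figure D4:**
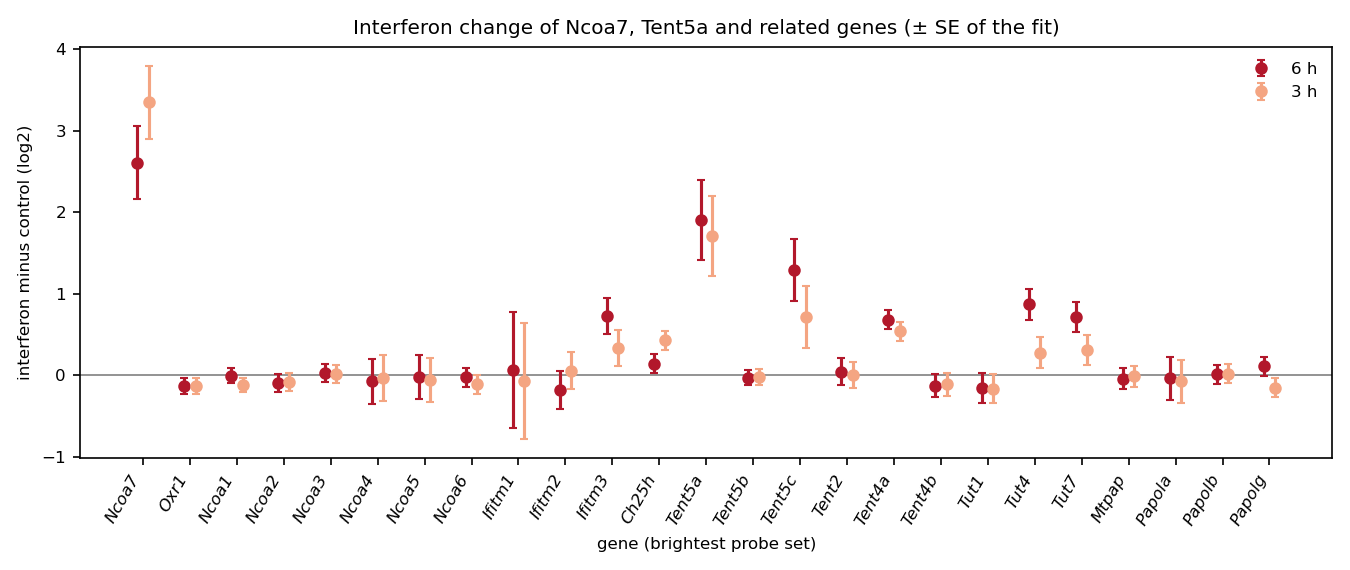
Change with interferon (vertical axis, log2, interferon minus control) at 6 h and at 3 h for Ncoa7, Tent5a and related genes (horizontal axis), 1 probe set per gene, the brightest; bars are the SE of the fit. The other Ncoa genes lie between -0.12 and 0.03 log2, and Tent5c, at 1.29 log2 at 6 h, is the highest gene after Ncoa7 and Tent5a.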

How the data were processed

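The deposited values are log2 levels per Affymetrix probe set that the authors computed by RMA (package affy, R 2.10.0), as the submitters' processing notes have it. The probe set definition file was not given in the sources used here. RMA equalizes the distribution of intensities between arrays, so a change common to most transcripts of a sample would not be seen. Biotinylated cRNA was made from 5 µg of total RNA, per the labels' protocols.

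From the deposited values, 57 control probe sets were left out and 31042 tested. The platform annotation gave 1 symbol for 20826 of these, several symbols for 436 and none for 9780; a gene is represented by its brightest probe set. Groups were fitted over all 12 arrays with limma 3.58.1 in R 4.3.3 (8 residual degrees of freedom), two-sided, with Benjamini-Hochberg adjustment over all probe sets of a comparison and calls at 0.05. The fit was tested on simulated data.

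The labels give the groups the same replicate numbers. Deviations from group means correlated by 0.651 to 0.829 within a number at 1 time and by 0.479 to 0.736 within a number across times, and by -0.562 to -0.0747 between numbers. The numbers therefore pair the samples, and values with replicate number as a block are given where a call changes.

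The members and gene lists were chosen with earlier results of these data known. Named genes are all probe sets of both members, up to 4 called genes of each list or else its 2 brightest, and the 5 genes most correlated with each member.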

Additional observations from a re-analysis of the deposited data

How the results depend on the processing

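Of 540 alternatives to the 25 values of the Ncoa7 and Tent5a probe sets, 536 moved by less than the spread between replicates or, in the untreated comparison, stayed without a call, as all 109 alternatives of that comparison did. The count of 536 is no measure of stability, since many alternatives could not move a change with interferon. The block, the random effect, limma-trend, the level filter and the compared arrays alone leave it as it is. So does leaving out an array of other groups. In untreated cells the block within each time compared number 1 only, by its fitted values. By the spread between replicates, the exceptions were all in Tent5a. On 1394940_at the 3 h change was 1.34 to 2.22 log2 and the difference between the times -0.31 to 0.59 log2 when 1 array was left out. On 1394695_at that difference was 0.29 to 1.25 log2. The lowest difference on each and the highest 3 h change came without interferon at 3 h, replicate 1. The cause was not tested. For Ncoa7 this measure could not show a shift of the difference between the times to 0. The SD of that difference over the numbers was 1.38 log2 on 1383938_at and 1.23 log2 on 1395081_at. Both are larger than the difference itself, -0.74 and -0.51 log2. With 1 array or 1 number left out it was -1.48 to -0.12 log2 on 1383938_at and -1.22 to -0.11 log2 on 1395081_at.

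With replicate number as a block, called probe sets were 340 at 6 h against 120 without it, 30 at 3 h against 2, and 2529 in untreated cells against 59, because the block takes out the spread between numbers. The block within each time gave 341 at 6 h and 10 at 3 h. In untreated cells it gave 1644, but there it compared the fitted values of number 1, which also draw on the interferon arrays. That count is therefore not one for the mean of the 3 numbers. The number as a random effect gave 252 at 6 h, 18 at 3 h and 830 in untreated cells. The fit of the compared arrays alone gave 69, 0 and 2, with 752 probe sets at an unadjusted p under 0.05 at 3 h. At 3 h, limma-trend, the filter at the median level and the subtraction of array medians each gave 1, and limma-trend gave 8 in untreated cells. With 1 array or 1 number left out the counts were 56 to 291 at 6 h, 0 to 112 at 3 h, 0 to 18 for the difference between the times and 2 to 660 in untreated cells. The highest count of each came without number 1 in the fit with the block.

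By gene, the block gave 1 blocker of virus entry, 1 Tent5 relative and 3 other polymerases at 6 h, 6 panel genes at 3 h, and 4 vacuolar ATPase genes and 2 polymerases in untreated cells. With 1 array left out, 0 to 1 polymerases and 13 to 23 panel genes were called at 6 h, the fewest panel genes without interferon at 6 h, replicate 2, and 0 to 9 panel genes at 3 h, the most without interferon at 3 h, replicate 1. Probe sets at least 1 log2 higher at 3 h numbered 71, and 45 to 117 with 1 number or 1 array left out. Those with a smaller change at 6 h numbered 9, 5 (of 45) to 14 (of 117) with 1 number left out and 6 to 29 with 1 array left out, an alternative chosen after seeing the data. The most came without control at 3 h, replicate 1. At a threshold of 2 log2 these were 16 and 4.

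With 3 arrays a group, the precision is limited by their number, and the difference between the times carries standard errors of 0.32 to 0.69 log2 on the 5 probe sets. The dim Ncoa7 probe set 1395081_at reads near the lower end of the arrays in control cells. The untreated comparison shares its control arrays with the interferon comparisons.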
